A study of Mus musculus with 576 samples.

Results

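Among 94 single cells taken on day 3 of culture with dexamethasone, 31 had Slc4a1 at 50 CPM or more and 63 had less. These 2 sets are called Slc4a1-high and Slc4a1-low here. They were chosen by the measured level of Slc4a1, the gene of the red cell anion exchanger band 3, and both come from 1 plate. The 94 cells are those of 95 wells that held at least 50000 counts and 1500 genes with at most 20% mitochondrially encoded counts. The whole series has 563 such cells on 6 plates, each of a different day or treatment. In the column names each plate also has a lane of its own. CPM are gene counts divided by the total of the well and multiplied by 1000000.

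All groups started from liver of C57/Bl6J mouse embryos at embryonic day 14.5. Cells carrying Sca-1, CD41, CD16/32, Ter119, CD11b, Ly-6G, CD45R or CD3e were depleted, and a sort on CD117, CD71 and CD24 enriched burst-forming unit erythroid (BFU-E) progenitors before culture. All cultures, controls included, received SCF (100 ng/mL), IGF1 (40 ng/mL) and Epo (2 U/mL), and the dexamethasone cultures also received that steroid at 100 nM. Besides the Slc4a1-high and Slc4a1-low cells at 72 hours with dexamethasone, the groups used are 92 dexamethasone cells at 48 hours, and the Slc4a1-positive cells (again 50 CPM or more) of the control plates, 71 at 72 hours and 62 at 48 hours. The labels do not say whether plates came from separate animals or cultures. Cells of 1 plate are no replicates, so no test was made, and intervals are exact 95% intervals of counting error only.

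BFU-E are early committed progenitors that can divide many times before they mature through CFU-E to hemoglobin-making erythroblasts. Glucocorticoids act through the glucocorticoid receptor, a ligand-activated transcription factor, and are known for delaying this maturation and widening the progenitor pool, with Kit and its ligand SCF supporting the early stage and Epo the later ones. As erythroblasts mature, GATA1 and KLF1 drive genes for globins, heme synthesis and the membrane skeleton, while Kit, GATA2 and MYB decline.

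The promoters of 3 genes with large differences between Slc4a1-high and Slc4a1-low cells are shown because they hold the letters of the GATA motif (AGATAA), which GATA1 can bind. Each runs 250 bases before to 50 bases after the annotated start in RefSeq sequence of GRCm38.p6. Capitals mark AGATAA and the CACCC-type box CCNCNCCC, the kind of site KLF1 binds, both searched on both strands. All matches here lie on the other strand, so the GATA motif reads TTATCT and the box is printed as its reverse complement. In the Alas2 promoter the capitals hold 1 AGATAA match and 4 CCNCNCCC matches, some of which overlap each other. The other two hold 1 AGATAA match each and no CCNCNCCC.
Alas2 (chrX:150547167-150547466, plus strand): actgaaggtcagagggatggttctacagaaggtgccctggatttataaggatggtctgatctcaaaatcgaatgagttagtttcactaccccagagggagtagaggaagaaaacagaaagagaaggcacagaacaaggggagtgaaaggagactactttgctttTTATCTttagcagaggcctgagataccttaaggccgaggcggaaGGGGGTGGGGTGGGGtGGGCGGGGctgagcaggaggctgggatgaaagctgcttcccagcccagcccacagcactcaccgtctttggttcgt
Trim10 (chr17:36869324-36869623, plus strand): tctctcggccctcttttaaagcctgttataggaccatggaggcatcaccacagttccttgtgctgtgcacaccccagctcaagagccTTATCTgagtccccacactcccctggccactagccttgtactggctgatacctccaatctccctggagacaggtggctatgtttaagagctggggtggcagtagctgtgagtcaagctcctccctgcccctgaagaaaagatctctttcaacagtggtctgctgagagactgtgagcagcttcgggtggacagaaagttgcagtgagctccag
Epb42 (chr2:121036828-121037127, minus strand): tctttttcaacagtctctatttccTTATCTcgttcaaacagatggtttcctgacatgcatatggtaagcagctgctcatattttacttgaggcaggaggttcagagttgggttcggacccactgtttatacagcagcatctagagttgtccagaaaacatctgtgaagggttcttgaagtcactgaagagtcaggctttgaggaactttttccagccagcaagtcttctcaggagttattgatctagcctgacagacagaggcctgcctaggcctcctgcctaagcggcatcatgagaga
Of 32841 promoters of this length, 11.2% hold AGATAA, 49.5% hold CCNCNCCC and 3.45% hold both. Among the 12 genes with the largest ratio of Slc4a1-high over Slc4a1-low cells, 8 had a promoter in the table, 4 of them with AGATAA and 5 with CCNCNCCC. Of the 12 with the smallest ratio, 8 had one as well, 3 with AGATAA and 5 with CCNCNCCC. A match is a description of letters and not a bound site.

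Slc4a1 (ENSMUSG00000006574, chr11:102348824-102366203, minus strand) had a count in 81 of the 94 dexamethasone cells of day 3, spread over a wide range of levels. The 31 Slc4a1-high cells were 33% of the plate (95% Clopper-Pearson interval 23.6 to 43.4%). They lay between 51.9 and 6482 CPM with a median of 497, and 12 of them reached 1000 CPM. The 63 Slc4a1-low cells lay between 0 and 46.5 CPM with a median of 2.20, and 13 had no count. Just inside the threshold stood cells at 51.9, 51.9 and 52.7 CPM, and just outside it cells at 46.5, 42.8 and 41 CPM, so no gap separates the sets.

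On the plates of the other days and treatment, the dexamethasone cells of day 1 had no Slc4a1 count in any of 94 cells, and those of day 2 had counts in 4 of 92 cells, up to 6.83 CPM. None of 92 cells at 50 CPM allows a share of up to 3.26% (3 of 92 cells), and the exact upper limit is 3.93%. In control cultures the share of cells at 50 CPM or more was 1.06% on day 1, 64.6% on day 2 (54.2 to 74.1%) and 76.3% on day 3 (66.4 to 84.5%). The plate's summed Slc4a1 level was 445 CPM (Poisson interval 441 to 449) in dexamethasone cells of day 3 and 3246 CPM in control cells of day 3. Which plate a column belongs to rests on dropping 1 empty field from the header. Over all matched wells before filtering, this puts 32 dexamethasone wells and 74 control wells of day 3 at 50 CPM or more, where a reading shifted by 1 column would put 1 and 0 there.

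**Figure D1:**
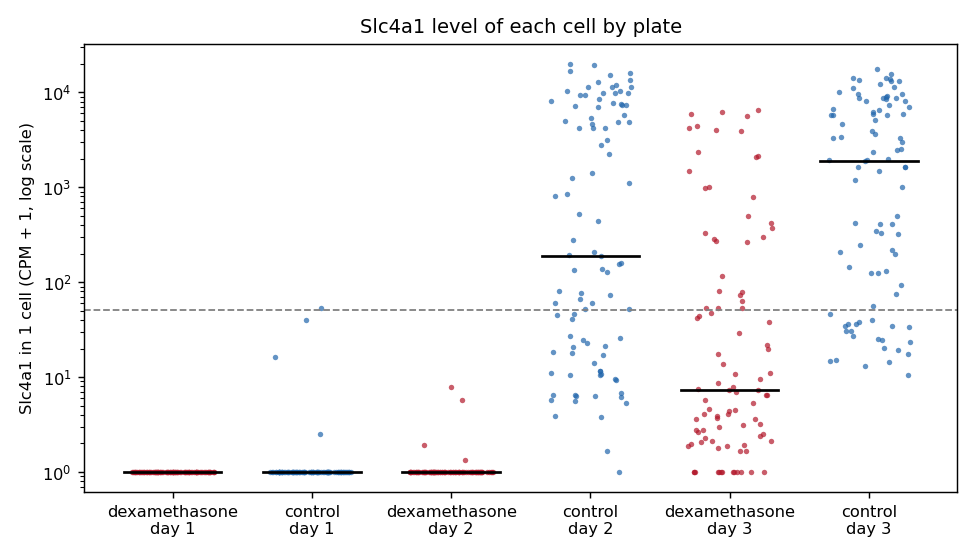
Slc4a1 per cell (CPM plus 1, log axis) on the 6 plates, by day, with dexamethasone left of control. Each point is a cell, black lines are medians and the dashed line is 50 CPM. Dexamethasone cells of day 3 straddle the line with a median of 6.34 CPM, against a median of 1885 CPM in control cells of day 3.

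The label of a late erythroid programme was checked against 9 late red cell genes found in the file, of which Slc4a1 itself is 1 and was left out. Hba-a1, Hbb-bt, Alas2, Epb42, Trim10 and Ermap are among the other 8. Their summed level per cell was between 973 and 23227 CPM with a median of 6033 in Slc4a1-high cells, and between 13.3 and 4284 CPM with a median of 1449 in Slc4a1-low cells. A median Slc4a1-high cell had counts for 8 of the 8 and reached 10 CPM for 8, and a median Slc4a1-low cell had counts for 7 and reached 10 CPM for 5. Transcripts of late genes were thus at lower levels in Slc4a1-low cells, and detection there partly rests on low counts. Epb42 and Trim10 had a count in 39 of the 63 each, and reached 10 CPM in 23 and 16.

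Not every Slc4a1-low cell was erythroid. In 7 of the 63, Klf1, the erythroid master regulator, was under 50 CPM (0 to 29.3 CPM). Of these, 5 had Mpo, the neutrophil granule peroxidase, at 1312 to 13933 CPM, 1 had the myeloid genes Lyz2 at 559 and Spi1 at 631 CPM with Mpo at 0, and 1 had the megakaryocyte genes Itga2b, Itgb3 and Pf4 at 3223, 2828 and 402 CPM. Of the Slc4a1-high cells 1 fell outside an erythroid rule (Klf1 at 50 CPM or more and fewer than 3 neutrophil markers at 10 CPM), a shallow cell of 80188 counts with Mpo at 2132 CPM. The rule kept 30 Slc4a1-high and 56 Slc4a1-low cells, and values limited to them are given below as erythroid cells only.

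Summed over 17 neutrophil and monocyte markers, cells ran between 0 and 6560 CPM (median 2.33) in the Slc4a1-high set and between 0 and 24330 CPM (median 3.50) in the Slc4a1-low set. Of these markers 9 were at 0 in all Slc4a1-high cells, Elane and S100a9 among them, and 2 (Cebpe and S100a9) in all Slc4a1-low cells. Mast cell and basophil markers had a median sum of 0.9 CPM in Slc4a1-high and 3.37 CPM in Slc4a1-low cells, with 10 and 8 of 13 at 0, the mast cell tryptases Tpsb2 and Tpsab1 included in both. Megakaryocyte and platelet markers ran between 39.3 and 6438 CPM (median 379) in Slc4a1-high cells and between 109 and 14230 CPM (median 529) in Slc4a1-low cells. Macrophage markers had medians of 0.9 and 1.58 CPM.

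Wells on a plate combine 12 and 8 index sequences, and low counts of an abundant gene were compared between wells that did and did not share an index with a well rich in it. Among erythroid cells, Mpo had a median of 3.52 CPM in 40 wells sharing an index of the set of 8 with an Mpo-rich well. The median was 0 in the 46 that did not. Highest values were 58.2 and 55.3 CPM, and the 31 wells sharing neither index were all at 0. In Slc4a1-low wells, Slc4a1 had a median of 2.92 CPM in 45 wells sharing such an index with a well at 1000 CPM or more, and of 1.05 CPM in the other 18. For an index of the set of 12 the medians were close, 2.61 CPM in 44 sharing wells and 1.98 CPM in the other 19. The 5 Slc4a1-low wells sharing neither index had a median of 0.791 CPM and a highest value of 42.8 CPM, with 2 at 0. The part of shared indexes in the lowest Slc4a1 values, and in those near the 50 CPM threshold, was not tested. Of the 94 index pairs, 92 recur on the control plate of day 3, 94 on that of day 2 and 91 on the dexamethasone plate of day 2. Those plates are named with other lanes.

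Slc4a1-high cells held fewer counts and genes than Slc4a1-low cells. Counts per cell ran between 80188 and 1288376 (median 858780) in Slc4a1-high cells and between 472622 and 1994298 (median 1149998) in Slc4a1-low cells. With each cell thinned to 200000 counts, which leaves out 2 shallow Slc4a1-high cells, the medians were 6448 and 7287 genes, and unthinned they were 7688 and 8683. Mitochondrially encoded counts took a median of 6.14% and 5.59%.

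Within the dexamethasone plate of day 3, counts were summed over the 31 Slc4a1-high and the 63 Slc4a1-low cells, and a gene with a mean of the 2 sums of at least 5 CPM was compared by the log2 ratio of high over low with 1 CPM added to each. Of 9420 genes, 599 (6.36%) were more than 2-fold higher and 901 (9.56%) more than 2-fold lower in Slc4a1-high cells, with a median log2 ratio of -0.11 over all genes. The split was 671 higher and 787 lower with TMM scaling, a reweighting of library totals, and 215 and 183 with a filter at 50 CPM. In erythroid cells only, 593 of 9259 (6.4%) were higher and 713 (7.7%) lower. These shares are the background for the counts below. Because the cells were selected on Slc4a1, a gene of the same programme had to differ, and the counts describe this choice. Across all 9420 genes, Slc4a1 alone had no overlap between the cells of the sets, so every other difference below is one of levels in overlapping ranges.

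Of 31 pathway lists compared, globins had the highest median. All 6 genes that passed the filter were more than 2-fold higher in Slc4a1-high cells, with a median log2 ratio of 2.4 (2.26 in erythroid cells only). Hba-a1, adult alpha globin, ran between 241 and 8995 CPM with a median of 2909 in Slc4a1-high cells, and between 5.58 and 1934 CPM with a median of 540 in Slc4a1-low cells. The summed levels were 2998 CPM (2977 to 3019) and 687 CPM (681 to 693). It reached 100 CPM in 31 of 31 Slc4a1-high and 52 of 63 Slc4a1-low cells, and 1000 CPM in 26 and 16 of them. In the 13 cells with no Slc4a1 count Hba-a1 ran between 5.58 and 1344 CPM with a median of 415, and 10 of them reached 100 CPM.

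Hbb-bs, adult beta globin, had a median of 7052 CPM (1147 to 31851) in Slc4a1-high cells and of 1496 CPM (13.4 to 6806) in Slc4a1-low cells, a log2 ratio of the sums of 2.14. Its near-copy Hbb-bt differed more, with sums of 1106 and 146 CPM (log2 ratio 2.91), and Hba-a2 stood at 89.1 and 13.1 CPM (2.67). How reads were divided between these near-identical pairs is not known. The embryonic zeta globin gene Hba-x had 83.4 and 0.108 CPM, but its median was 0 in both sets and 1 cell gave nearly all of its counts. All globins together took 1.20% of counts in Slc4a1-high and 0.261% in Slc4a1-low cells.

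Of 14 heme synthesis genes, 10 were more than 2-fold higher in Slc4a1-high cells and none lower, with 13 above 0 and a median log2 ratio of 1.19 (9 genes and 1.07 in erythroid cells only). The steps of the pathway differed to unequal degrees, the entry step by most. Alas2, the erythroid form of the rate-limiting synthase, ran between 0 and 3685 CPM with a median of 424 in Slc4a1-high cells, and between 0 and 268 CPM with a median of 1.59 in Slc4a1-low cells. The sums were 669 CPM (659 to 679) and 31.6 CPM (30.3 to 32.9), a log2 ratio of 4.36. Alas2 reached 50 CPM in 22 of 31 Slc4a1-high cells (71%) and in 12 of 63 Slc4a1-low cells (19%). Its housekeeping counterpart Alas1 was close to even at -0.11.

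Downstream enzymes differed by less. Uros, uroporphyrinogen III synthase, had sums of 387 and 87.9 CPM (log2 ratio 2.12), and Fech, which inserts the iron, 2033 and 670 CPM (1.6). The enzymes Ppox, Cpox, Alad and Urod stood between 1.14 and 1.68. Of the transporters, Abcb10, which supports mitoferrin in the inner mitochondrial membrane, had 1137 and 269 CPM (2.07), whereas Tmem14c at 0.93 and Slc25a38 at 0.73 stayed under 2-fold.

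Among 16 iron handling genes, only Slc25a37 and Tfrc were more than 2-fold higher in Slc4a1-high cells, and Hmox1, heme oxygenase, was lower at 3.62 against 15.1 CPM. Slc25a37, mitoferrin-1, which brings iron into the mitochondrion, ran between 3.99 and 6170 CPM with a median of 490 in Slc4a1-high cells, and between 0 and 296 CPM with a median of 76 in Slc4a1-low cells. Its log2 ratio of 3.68 came next after that of Alas2 among the genes named by size. Tfrc, the transferrin receptor, had medians of 2282 and 1023 CPM and a log2 ratio of 1.35, and its ranges overlapped widely.

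Of 15 membrane skeleton genes, 7 were more than 2-fold higher in Slc4a1-high cells and 1 lower, with a median log2 ratio of 0.78 (0.68 in erythroid cells only). Epb42, protein 4.2, which binds band 3 itself, ran between 0 and 1276 CPM with a median of 200 in Slc4a1-high cells, and between 0 and 350 CPM with a median of 1.18 in Slc4a1-low cells (log2 ratio 2.85). It reached 10 CPM in 28 of 31 and 23 of 63 cells. Dmtn, the actin bundler dematin, followed at 127 and 17.5 CPM (2.78), then Tmod1 at 1.85. The core proteins ankyrin (Ank1, 236 and 72.3 CPM) and beta spectrin (Sptb, 762 and 241 CPM) differed less, by 1.69 and 1.66. The lower gene was the adducin Add3 at -1.26, and cytoskeletal actin, Actb, stood at -0.30.

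Among 20 surface antigens, channels and carbonic anhydrases, 10 were more than 2-fold higher and 1 lower (median log2 ratio 1.00, and 0.86 in erythroid cells only). Rhd, of the Rhesus complex, ran between 4.16 and 1806 CPM with a median of 787 in Slc4a1-high cells, and between 0 and 923 CPM with a median of 122 in Slc4a1-low cells. Its sums were 745 and 175 CPM (log2 ratio 2.08), and Xk, Kel, Ermap and Gypc, further blood group genes, stood between 1.07 and 1.64. The water channel Aqp1 went the other way, with 28.2 CPM in Slc4a1-high and 65.5 CPM in Slc4a1-low cells.

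Of 27 genes of organelle clearance and terminal remodelling, 8 were higher and 1 lower, with a median log2 ratio of 0.60. Trim10, an E3 ubiquitin ligase of erythroblasts, had a median of 128 CPM (0 to 1657) in Slc4a1-high cells and of 0.726 CPM (0 to 275) in Slc4a1-low cells, a log2 ratio of 3.41. Hemgn, hemogen, had sums of 593 and 111 CPM (2.4), and the autophagy-linked factor Foxo3 had 200 and 85.4 CPM (1.22).

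**Figure D2:**
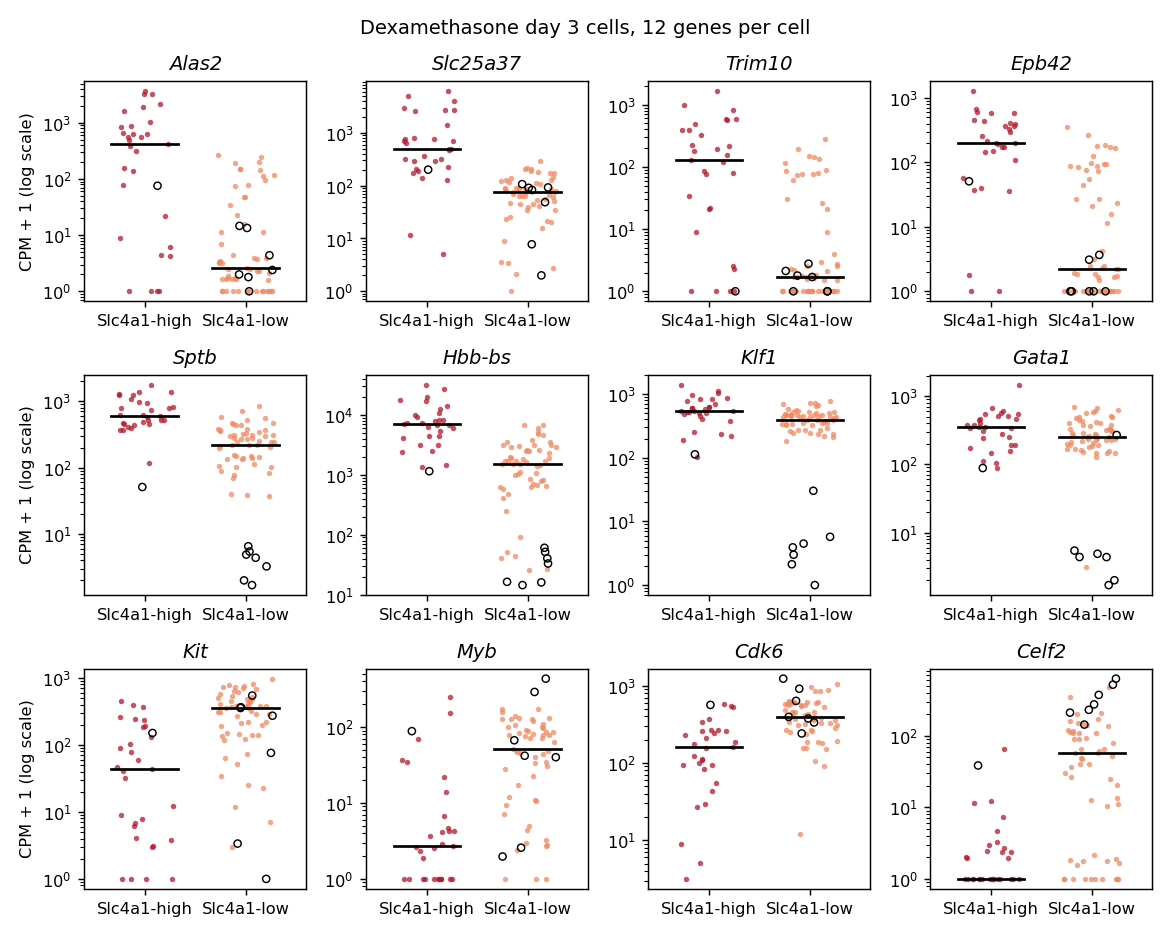
Level per cell (CPM plus 1, log axis) of 12 genes in the 31 Slc4a1-high cells (left of each pair) and the 63 Slc4a1-low cells (right), with medians as lines and cells outside the erythroid rule as open circles. Alas2, Trim10 and Epb42 have medians of 424, 128 and 200 CPM in Slc4a1-high cells and under 2 CPM in Slc4a1-low cells, Klf1 and Gata1 overlap, and Kit, Myb, Cdk6 and Celf2 are shifted down.

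The regulators of the erythroid programme differed less than its products did. Of 25, 3 were more than 2-fold higher in Slc4a1-high cells and 1 lower, with a median log2 ratio of 0.40. Klf1 ran between 102 and 1399 CPM with a median of 539 in Slc4a1-high cells, and between 0 and 783 CPM with a median of 398 in Slc4a1-low cells (0.61, and 0.47 in erythroid cells only). Gata1, the master GATA factor, had sums of 388 and 286 CPM (0.44). The sets overlapped for both, with lower highest values in Slc4a1-low cells. The 3 higher genes were Sox6, which silences embryonic globin (121 and 27.9 CPM, 2.08), Klf3, a repressor of the KLF family (130 and 37.1 CPM, 1.78), and Foxo3.

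Several genes of earlier stages were lower in Slc4a1-high cells, some of them by less once non-erythroid cells were left out. The list of 8 early erythroid progenitor markers was mixed: 4 had a ratio above 0 and 4 below, 1 was more than 2-fold higher and 4 lower (median -0.39), and in erythroid cells only 1 of 7 was higher and 2 lower (median 0.32). Its summed level, to which Tfrc gives the most, had a median of 4142 CPM in Slc4a1-high and 2475 CPM in Slc4a1-low cells. Myb, a transcription factor of proliferating progenitors, ran between 0 and 251 CPM with a median of 1.70 in Slc4a1-high cells, and between 0 and 433 CPM with a median of 49.7 in Slc4a1-low cells (log2 ratio -1.75, and -1.59 in erythroid cells only). Of 15 early or other-lineage transcription factors, 9 were more than 2-fold lower and none higher (median -1.42); in erythroid cells only, 6 of 12 (median -1.0). Gata2, the early GATA factor, had sums of 20.3 and 48.6 CPM (-1.22, and -0.86 in erythroid cells only), and Spi1, the myeloid factor PU.1, 11.1 and 55.2 CPM (-2.21, and -1.87).

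Kit, the SCF receptor, had a log2 ratio of -1.64 in all cells and of -1.7 in erythroid cells only. It ran between 0 and 450 CPM with a median of 42.4 in Slc4a1-high cells, and between 0 and 974 CPM with a median of 351 in Slc4a1-low cells, with sums of 108 CPM (104 to 112) and 340 CPM (336 to 344). It reached 100 CPM in 11 of 31 Slc4a1-high cells (35.5%, 19.2 to 54.6%) and in 51 of 63 Slc4a1-low cells (81%, 69.1 to 89.8%). A minority of Slc4a1-high cells thus kept a level of Kit in the range usual for Slc4a1-low cells.

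For the list of 18 progenitor surface markers the sign of the median depended on the cells and genes included. Over all cells 2 were more than 2-fold higher and 10 lower, with a median of -1.14; in erythroid cells only, 2 of 14 were higher and 4 lower, with a median of 0.11, and with a filter at 50 CPM in all cells the median was 0.0047. Cd34, the stem cell antigen, was at -4.65 over all cells and at 0.10 in erythroid cells only. Cd48, a SLAM family receptor, stayed low (16.1 and 113 CPM, -2.74, and -2.90 in erythroid cells only). The Csf2rb gene of the shared beta chain of the GM-CSF and IL-3 receptors was higher at 601 and 270 CPM, with medians of 140 and 82 CPM.

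Of the genes named for the smallest ratios of Slc4a1-high over Slc4a1-low cells, the RNA-binding protein gene Celf2 came first. It ran between 0 and 63.7 CPM with a median of 0 in Slc4a1-high cells, and between 0 and 626 CPM with a median of 56.2 in Slc4a1-low cells (-4.24, and -3.82 in erythroid cells only), and reached 10 CPM in 4 of 31 and 45 of 63 cells. Rgs19, a regulator of G-protein signalling, had sums of 4.92 and 84.8 CPM (-3.86), and Rcsd1, a capping protein interactor, 7.51 and 110 CPM (-3.70). Most of the others belong to signalling and the actin cortex of blood cells: Plcg2, a phospholipase C (4.96 and 62.6 CPM), the adaptor Sla (8.35 and 80.7 CPM), Parvg, a parvin (8.58 and 75.4 CPM), and Coro1a, coronin (32.8 and 257 CPM). In erythroid cells only, the Slc4a1-low sums of Plcg2, Sla, Parvg and Coro1a were smaller, at 37, 51.5, 48.3 and 169 CPM, against Slc4a1-high sums of 4.32, 8.07, 8.49 and 30.9 CPM. Annexins and S100 genes were lower too, 6 of 10 past 2-fold and 4 of 7 in erythroid cells only, with Anxa2 at 34.8 and 212 CPM (-2.58, and -1.96 in erythroid cells only) and Anxa4 at 0.915 and 23.9 CPM (-3.70, and -2.94).

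Cell cycle lists split by phase. None of 34 S phase genes passed 2-fold (median 0.17). All 30 of the G2 and M phase genes had a ratio above 0, and 8 passed 2-fold higher (median 0.74). Nusap1, of the mitotic spindle, had sums of 213 and 62.9 CPM (1.75), Top2a 736 and 344 CPM (1.09), and the proliferation marker Mki67 448 and 218 CPM (1.04), with medians of 356 and 168 CPM. Slc4a1-high cells therefore did not have lower levels of division genes than Slc4a1-low cells.

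Regulators of the G1 phase differed in both directions. Ccnd3, cyclin D3, had sums of 1007 and 363 CPM (1.47) with medians of 749 and 326 CPM, whereas Cdk6, its kinase partner, had 188 and 449 CPM (-1.25) with medians of 160 and 392 CPM. The CDK inhibitors Cdkn1b (1.34), Cdkn2d (1.24) and Cdkn1a (1.03) and Rb1, the retinoblastoma protein (1.58), were more than 2-fold higher in Slc4a1-high cells. Of the 20 genes in that list 7 were higher and 1 lower.

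In the MYC network, Myc itself had sums of 259 and 506 CPM (-0.97), just under 2-fold, with medians of 141 and 437 CPM. Its antagonists Mxd1 (212 and 56 CPM, 1.90) and Mxd3 (28 and 4.43 CPM, 2.42) were higher in Slc4a1-high cells, though Mxd3 was at 0 in 18 of the 31 and stood at 18.1 CPM (1.81) without the cell that gave 37.7% of its counts. Ribosome biogenesis genes, among which many are MYC targets, were lower as a block: none of 26 had a ratio above 0, 12 passed 2-fold lower, and the median was -0.99 (14 genes and -1.02 in erythroid cells only). Npm1, nucleophosmin, ran between 218 and 5412 CPM with a median of 1356 in Slc4a1-high cells, and between 843 and 6743 CPM with a median of 2780 in Slc4a1-low cells. Its summed levels were 1384 CPM (1370 to 1398) and 2859 CPM (2847 to 2872). The cytosolic ribosomal proteins themselves were close to even, none of 30 past 2-fold, at a median of -0.15.

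Targets of the glucocorticoid receptor differed in both directions. Of 20 that could be compared, 3 were more than 2-fold higher and 6 lower in Slc4a1-high cells, with a median log2 ratio of 0.06 (0.19 in erythroid cells only, and -0.10 without the highest cell of each set per gene). Tsc22d3, the anti-inflammatory leucine zipper GILZ, had sums of 80 and 72.9 CPM (0.13), the clock gene Per1 52.1 and 40.7 CPM (0.35), and Hif3a 165 and 160 CPM (0.05). The metallothionein genes were lower: Mt2 had a median of 24.9 CPM (0 to 346) in Slc4a1-high cells and of 70.7 CPM (0 to 383) in Slc4a1-low cells, sums of 36.3 CPM (34.1 to 38.7) and 90.8 CPM (88.6 to 92.9). Fkbp5, a co-chaperone of the receptor, was at 13.8 and 31.4 CPM (-1.14, and -0.89 in erythroid cells only).

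Higher in Slc4a1-high cells were Acp5, an acid phosphatase (381 and 147 CPM, 1.37), Tgm2, a transglutaminase (112 and 38.2 CPM, 1.52), and the phosphatase Dusp1 (99.7 and 30.3 CPM, 1.68), though 1 cell gave 31.6% of the Dusp1 counts and the ratio without it was 1.17. Of 14 genes for the receptor and its chaperones none passed 2-fold (median -0.20); the receptor gene Nr3c1 had medians of 49.9 and 46.9 CPM. Among 21 Epo and STAT5 genes 5 were higher and 4 lower. The feedback inhibitor Cish was at 216 and 73.9 CPM (1.53) and the kinase Pim1 at 91.6 and 30.8 CPM (1.54). The iron hormone Erfe was at 43.2 and 8.01 CPM (2.30), with a median of 0 and a count in 13 of 31 Slc4a1-high cells. Stat5a itself was at 45 and 110 CPM (-1.27), and the receptor Epor at 305 and 197 CPM (0.63).

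Metabolic lists were uneven in how many of their genes passed 2-fold. None of 20 nuclear respiratory chain genes (median -0.10), of 8 mitochondrially encoded genes (0.17) or of 15 endoplasmic reticulum chaperones (-0.36) passed. Of 22 glycolysis and hypoxia genes, Pklr, the pyruvate kinase of red cells (279 and 111 CPM, 1.33), and the glucose transporter Slc2a1 were higher and the hexokinase Hk2 was lower (2.21 and 33.3 CPM, -3.42). The Slc2a1 sums of 96.7 and 38.6 CPM rest on a few cells, since its medians were 3.93 and 37.7 CPM. Of 17 amino acid response and integrated stress genes 6 were higher and 1 lower (5 and 1 in erythroid cells only). Over all genes 6.36% were higher and 9.56% lower. Trib3 was at 79.9 and 29.3 CPM (1.41) and Ddit3, CHOP, at 82.2 and 32.7 CPM (1.31). Bcl2, an inhibitor of apoptosis, was at 0.114 and 12 CPM, and its relative Bcl2l1, the main one in erythroblasts, at 84.6 and 45.6 CPM (0.88, and 1.37 in erythroid cells only).

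**Figure D3:**
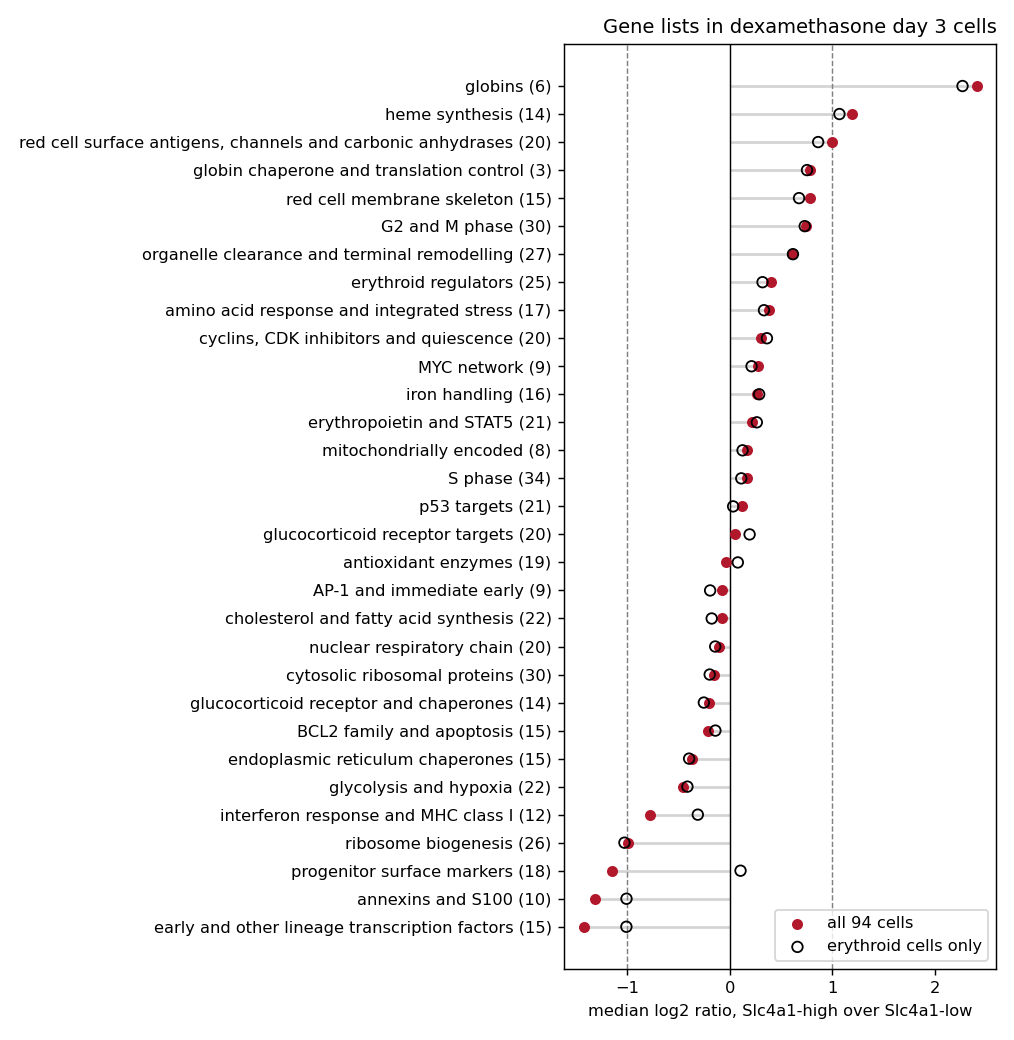
Median log2 ratio of Slc4a1-high over Slc4a1-low cells for 31 gene lists, with the number of genes compared in parentheses; filled points use all 94 cells, open points erythroid cells only, and dashed lines mark 2-fold. Globins lie at 2.4 and heme synthesis at 1.19, ribosome biogenesis at -0.99, and the progenitor surface markers lie at -1.14 in all cells and at 0.11 in erythroid cells only.

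By rank across all 94 cells, among the genes most like Slc4a1 were Hbb-bs (Spearman correlation 0.67), Uros (0.64) and Epb42, Sptb and Cpox (0.63 each), and those most opposed were Vav1, a guanine nucleotide exchange factor of blood cells (-0.61), and Ywhaz, a 14-3-3 protein, Npm1, the lactate dehydrogenase gene Ldha and Ppif, a mitochondrial cyclophilin (-0.58 each). These are descriptions over cells of 1 plate that share library preparation, and they include the difference used to choose the sets. Vav1 had medians of 1.02 CPM in Slc4a1-high and 132 CPM in Slc4a1-low cells.

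The Slc4a1-high cells were themselves a graded set. Within the 31 cells, the Spearman correlation with Slc4a1 was 0.91 for Slc25a37, 0.83 for Trim10, 0.75 for Ccnd3 and 0.74 for Alas2, and -0.79 for Npm1 and -0.75 for Zfp36l2. Between the 12 cells at 1000 CPM or more and the 19 cells under it, 776 of 9095 genes (8.53%) were more than 2-fold higher and 1454 (16%) lower at the higher Slc4a1 level, with a median log2 ratio of -0.14 over all genes. All 6 globins were higher again (median 1.85), Hba-x among them, although nearly all of its counts came from a single cell. Of 27 remodelling genes 10 were higher and none lower, and 9 of 26 ribosome biogenesis genes were lower and none higher (median -0.84).

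The early lists were not alike in the cells with more Slc4a1. Of 12 early or other-lineage transcription factors 5 were more than 2-fold lower and none higher, with 11 below 0 (median -0.77). By contrast, 4 of 7 early erythroid progenitor markers were above 0 (median 0.39). Of 12 progenitor surface markers 6 were above 0 and 6 below (median -0.04). Kit was lower at 1000 CPM or more by a log2 ratio of -2.35, Myb by -4.08, Gata2 by -4.02 and Zfp36l2, an mRNA decay factor known for holding BFU-E in self-renewal, by -4.40. In the 4 cells with the most Slc4a1 (6482, 6182, 5957 and 5588 CPM), Kit was at 0, 0, 8.04 and 11.2 CPM and Zfp36l2 at 0 in each. The cell at 422 CPM of Slc4a1 had Kit at 450 CPM beside Hba-a1 at 1997 CPM, and that at 497 CPM had Kit at 364, Gata2 at 219 and Myb at 151 CPM beside Hba-a1 at 3057 CPM. Early and late genes were thus found together in these cells.

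**Figure D4:**
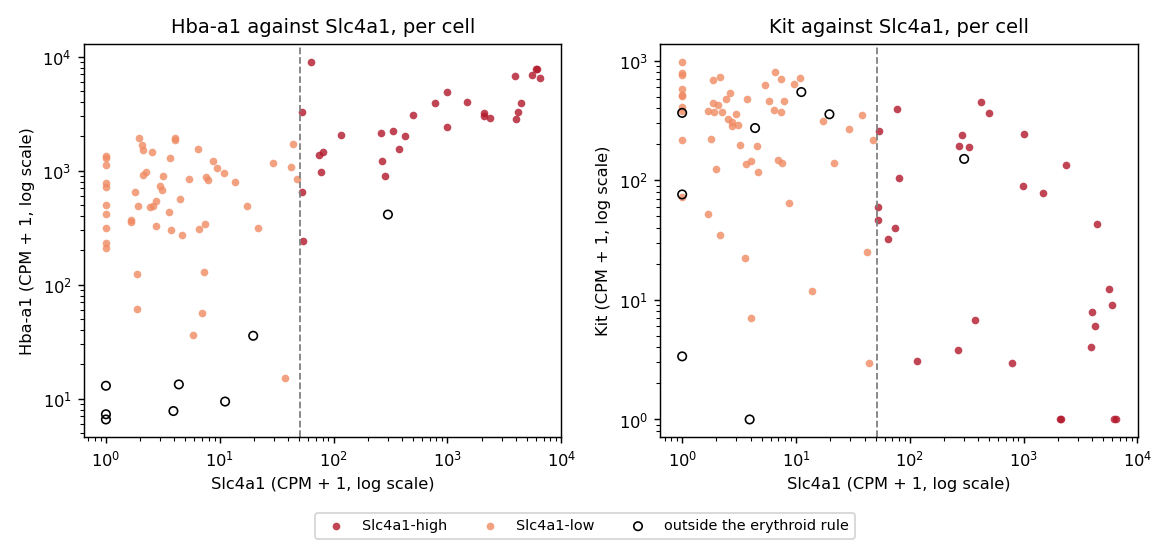
Hba-a1 and Kit against Slc4a1 in each of the 94 dexamethasone cells of day 3 (CPM plus 1, log axes), with cells outside the erythroid rule as open circles. Hba-a1 is at 241 CPM or more in every Slc4a1-high cell, and Kit is lower toward the right, at 11.2 CPM or less in the 4 cells with the most Slc4a1.

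Slc4a1-high dexamethasone cells of day 3 were next set against Slc4a1-positive control cells of day 3, which asks how cells that reached the late programme with the steroid differ from those without it. The same 31 cells enter as above. Of 9070 genes, 834 (9.2%) were more than 2-fold higher in the 31 dexamethasone cells and 625 (6.89%) lower than in the 71 control cells, with a median log2 ratio of 0.00. The split was 731 higher and 730 lower with TMM scaling, 1010 and 519 without CT010467.1 (below), and 113 and 213 with a filter at 50 CPM. Slc4a1, by which both sets were chosen, had a median of 497 CPM (51.9 to 6482) in dexamethasone cells and of 3673 CPM (55.2 to 17532) in control cells. The sets thus differed in Slc4a1 level, and the part of this in the differences below was not tested. Limiting both to Slc4a1 at 200 to under 3000 CPM left 15 and 24 cells, with 1156 genes higher and 882 lower. Plate, lane and treatment cannot be told apart in this contrast. An annotated transcript, CT010467.1, took 7.70% of counts in the dexamethasone cells and 0.898% in the control cells.

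Of 32 listed targets of the glucocorticoid receptor, 17 passed the filter in this contrast and 15 did not. Of the 17, 10 were more than 2-fold higher and 1 lower in the dexamethasone cells, with a median log2 ratio of 1.43. The list was chosen with earlier results of these data known. A gene such as Mt2 passed the filter only through the dexamethasone cells, so these counts are a description. Mt2 ran between 0 and 346 CPM with a median of 24.9 in dexamethasone cells, and between 0 and 16.4 CPM with a median of 0 in control cells. Its sums were 36.3 CPM (34.1 to 38.7) and 0.393 CPM (0.270 to 0.552), and 29 of 31 dexamethasone cells but 2 of 71 control cells reached 1 CPM. Mt1 followed at 217 and 26.9 CPM (2.96), Acp5 at 381 and 61.9 CPM (2.60), Per1 at 52.1 and 10.8 CPM (2.17), Hif3a at 165 and 49 CPM (1.73) and Tsc22d3 at 80 and 26.8 CPM (1.54). Mt2 was thus found in nearly every Slc4a1-high cell. Fkbp5 (0.20), Dusp1 (-0.05) and Tgm2 (-0.06), by contrast, were close to even, and the lower gene was Zfp36, an mRNA decay factor, at -1.07.

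**Figure D5:**
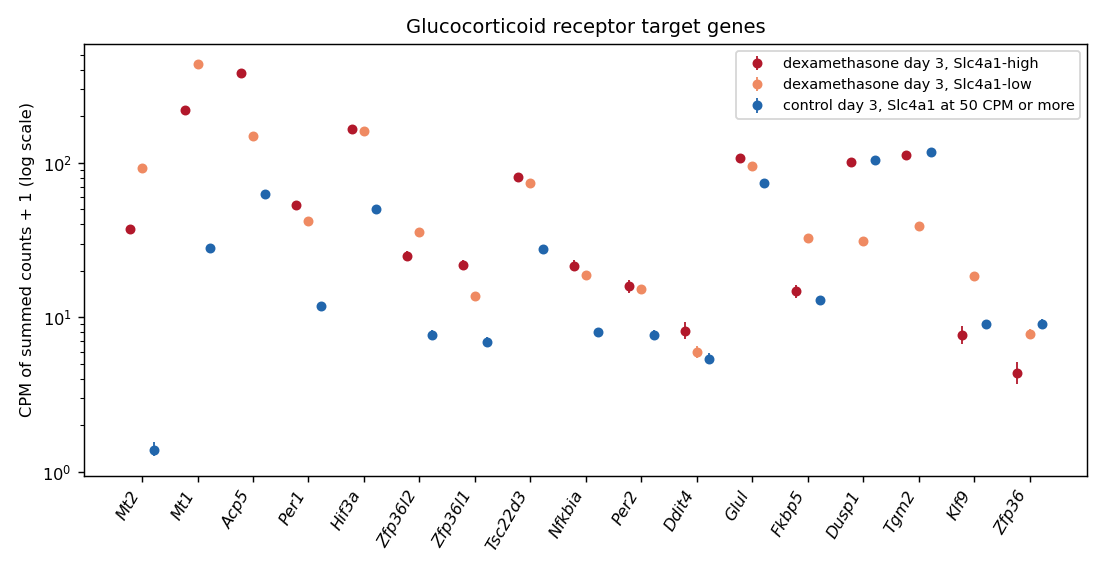
Summed level (CPM plus 1, log axis) of 17 glucocorticoid receptor targets in Slc4a1-high cells, Slc4a1-low cells and Slc4a1-positive control cells of day 3; bars are exact 95% Poisson intervals. Mt2 stands at 36.3 and 90.8 CPM in the dexamethasone sets and at 0.393 CPM in control cells, while Dusp1 stands at 99.7 CPM in Slc4a1-high and 103 CPM in control cells.

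Some genes of the early stage were also higher in the dexamethasone cells than in the control cells. Kit had sums of 108 and 16.2 CPM (2.67), with medians of 42.4 CPM and 0, and reached 100 CPM in 11 of 31 dexamethasone cells and 2 of 71 control cells. Cd48 had 16.1 and 0.0833 CPM (3.98). The genes named for the largest ratios were Lpl, lipoprotein lipase (45.2 and 1.07 CPM, 4.48), Syne1, a nesprin of the nuclear envelope (83.6 and 2.90 CPM, 4.44), Nfia, a transcription factor (39.2 and 1.07 CPM, 4.28), Siae, a sialic acid esterase (149 and 9.40 CPM, 3.85), and Il1rl1, the IL-33 receptor (70.6 and 5.76 CPM, 3.40). Siae and Syne1 had medians of 120 and 59.4 CPM in dexamethasone cells and of 0 in control cells, whereas the median of Lpl was 1.61 CPM, so its sum rests on fewer cells.

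Late genes were lower than in control cells, to an uneven degree, in sets that also differed in Slc4a1 level. Of 27 remodelling genes 15 were more than 2-fold lower and 1 higher (median -1.07), but of 14 heme synthesis genes only 1 was lower (median -0.29) and of 20 surface genes 3 (median -0.26). Alas2 had a median of 424 CPM in dexamethasone and 1730 CPM in control cells, whereas Abcb10 had medians of 977 and 1204 CPM. Ube2o, the ubiquitin ligase that clears ribosomes, had sums of 10.6 and 191 CPM (-4.05), Trim10 242 and 922 CPM (-1.92) and Ube2h, a ubiquitin-conjugating enzyme, 28 and 202 CPM (-2.81). The largest difference was at Tmcc2, with 9.65 and 1315 CPM (-6.95), medians of 0 and 13.7 CPM and a highest control cell of 21290 CPM, so it is carried by a subset of control cells.

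Integrated stress genes were lower as well, 9 of 18 past 2-fold and none higher (median -0.99). Trib3, a pseudokinase induced by ATF4, had a median of 17.1 CPM (0 to 410) in dexamethasone cells and of 303 CPM (0.761 to 5619) in control cells, a log2 ratio of -3.04. Ddit3 had sums of 82.2 and 275 CPM (-1.73) and Atf4 406 and 953 CPM (-1.23). Bcl2l1 had 84.6 and 487 CPM (-2.51), with medians of 54.4 and 142 CPM. Ribosome biogenesis (median 0.04, 1 of 26 higher) and the G2 and M phase genes (-0.24, none of 30 past 2-fold) were close to control cells.

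Against the 62 Slc4a1-positive control cells of day 2, which again share the 31 dexamethasone cells, 812 of 9041 genes (8.98%) were more than 2-fold higher and 532 (5.88%) lower, with a median of 0.04. The split was 676 higher and 656 lower with TMM scaling, and 124 and 138 with a filter at 50 CPM. Slc4a1 reached 1000 CPM in 41 of the 62 control cells and in 12 of the 31 dexamethasone cells. The part of this in the differences was not tested. Targets of the glucocorticoid receptor were 9 of 17 higher and 2 lower (median 1.14), with Acp5 at 381 and 32.2 CPM (3.52) and Mt2 at 36.3 and 2.95 CPM (3.24). Kit, of the early stage, had 108 and 36.6 CPM (1.54). Of the late genes, no heme synthesis gene of 14 passed 2-fold (median -0.27), and of 27 remodelling genes 4 were lower and 2 higher. Lower instead were 12 of 21 glycolysis and hypoxia genes (2 higher, median -1.11) and 13 of 19 integrated stress genes, with none of the 19 above 0 (median -1.22). Examples are Bnip3, a hypoxia-linked mitophagy receptor (20.7 and 152 CPM, -2.82), Trib3 (79.9 and 535 CPM, -2.73) and Erfe (43.2 and 237 CPM, -2.43).

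The Slc4a1-low cells of day 3 were compared with the 92 dexamethasone cells of day 2, which asks how cells still under the threshold differ from cells a day earlier. The 63 Slc4a1-low cells are the same as above. Of 9578 genes, 315 (3.29%) were more than 2-fold higher and 379 (3.96%) lower on day 3, with a median of -0.02. In erythroid cells only, 276 of 9357 (2.95%) were higher and 402 (4.3%) lower. All 5 globins compared were higher (median 2.45). Hba-a1 had a median of 540 CPM (5.58 to 1934) in Slc4a1-low cells of day 3 and of 49.4 CPM (0 to 1046) in cells of day 2, and Hbb-bs had medians of 1496 and 115 CPM. Slc4a1-low cells of day 3 therefore held more globin transcript than cells of the day before. Their Slc4a1 also reached further, with 10 of the 63 at 10 to under 50 CPM and none of the 92 cells of day 2 at 10 CPM. The part of this in the globin difference was not tested.

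Other lists of the red cell programme held a smaller part of their genes past 2-fold than the globins did. Of 14 heme synthesis genes 1 was more than 2-fold higher (median 0.54), and of 14 skeleton genes 2 were higher (median -0.26). Of 20 surface genes 3 were higher and 1 lower (median 0.30), and of 26 remodelling genes 3 were higher (median -0.07). Of 25 erythroid regulators none was higher and 2 were lower. Over all genes 3.29% were higher. Alas2 had sums of 31.6 and 19.3 CPM (0.68) with medians of 1.59 CPM and 0. Klf1 had medians of 398 and 199 CPM (0.90). Kit had a median of 351 CPM (0 to 974) on day 3 and of 675 CPM (17.2 to 5427) on day 2 (-1.16), and Gata2 had sums of 48.6 and 110 CPM.

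Lower in Slc4a1-low cells of day 3 than in cells of day 2 were 13 of 22 glycolysis and hypoxia genes and none higher (median -1.13), and 6 of 10 AP-1 and immediate early genes (median -1.19). The glucose transporters Slc2a3 and Slc2a1 had sums of 129 and 828 CPM (-2.67) and of 38.6 and 223 CPM (-2.50), Bnip3 had 22.6 and 132 CPM (-2.49), and the immediate early factor Egr1 34.7 and 407 CPM (-3.51). Of 23 glucocorticoid receptor targets 7 were lower and 1 higher (median -0.61), with Mt2 at 90.8 and 164 CPM. Of 13 mast cell and basophil markers, 4 passed the filter, which a gene high on day 2 alone can pass. All 4 were lower (median -4.17), and in erythroid cells only 1 passed, at -2.06. The sum of the 13 reached 268 CPM in Slc4a1-low cells of day 3 and 49830 CPM in cells of day 2. Its medians were 3.37 and 149 CPM, and the part of cells rich in these markers in the other differences was not tested. In erythroid cells only the glycolysis and AP-1 medians were -1.15 and -1.07, and that of the globins 2.55.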

How the data were processed

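Single cells were sequenced in 6 plates. The authors deposited raw counts of every gene in every well, made with STAR 2.4, featureCounts and GRCm38 per the submitters' processing notes. An annotation release, a strand setting and a multimapping rule were not given in the sources used here. Near-identical pairs (Hba-a1 and Hba-a2, Hbb-bs and Hbb-bt, Csf2rb and Csf2rb2) and overlapping genes are therefore uncertain. No molecular identifiers are stated, so amplified copies are counted again. Of 576 value columns, 1 matched no label and was not used. The header has 1 empty field more than the rows, which was dropped.

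Cells were filtered, split by Slc4a1 and summed with Python 3.11.15, numpy 2.4.6, pandas 2.3.3 and scipy 1.17.1, and figures drawn with matplotlib 3.10.9. A gene at a mean of 5 CPM was compared with 1 CPM added, and called past 2-fold. The sums weight deep cells more. Steps were tested on simulated data. The members, thresholds and gene lists were chosen with earlier results of these data known. Genes named by size are the 12 largest and 12 smallest ratios at a mean of 20 CPM or more (8 and 8 against other plates), detected in 50% of cells of the higher set, with at most 20% of that set's counts from 1 cell, along with the 8 highest and 8 lowest rank correlations; other genes come from the lists. Depth per cell had plate medians of 922603 to 1244026 counts. No doublet caller was run on these sorted wells. Alternatives were other thresholds, filters, pseudocounts, TMM scaling (edgeR 4.0.16), thinning, means of cells and leaving out cells. Promoters are those of RefSeq. Some of the genes these rules name are not reported here.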

Additional observations from a re-analysis of the deposited data

How the results depend on the processing

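No paired analysis was possible because each comparison rests on sums of cells with 1 plate per side and no test. The share of dexamethasone cells of day 3 above the Slc4a1 threshold was 33% at 50 CPM, 43.6% at 10 CPM and 16% at 500 CPM. Genes past 2-fold between Slc4a1-high and Slc4a1-low cells numbered 1500; they were 967 and 2502 at thresholds of 10 and 500 CPM, and 2741, 751 and 398 with filters at a mean of 1, 20 and 50 CPM. With those filters the counts were 2785, 687 and 326 against control cells of day 3 (1459 at 5 CPM), 2525, 603 and 262 against control cells of day 2 (1344), and 1323, 271 and 127 for Slc4a1-low cells against cells of day 2 (694). A pseudocount of 5 CPM gave 871 against control cells of day 2 and 396 for Slc4a1-low cells against day 2. Limiting both plates to Slc4a1 at 200 to under 3000 CPM left 15 and 11 cells and 2675 genes against control cells of day 2. Against control cells of day 3 it left 15 and 24 cells and 2038 genes. With a stricter filter fewer genes are compared and a smaller share passes, 15.9%, 11.1% and 9.49% at 5, 20 and 50 CPM between Slc4a1-high and Slc4a1-low cells; the cause was not tested. The median of progenitor surface markers, -1.14, reversed to 0.0047 with a filter at 50 CPM, to 0.13 without cells holding 2 or more neutrophil and monocyte markers and to 0.11 in erythroid cells only. The 24 genes named by size were chosen for extreme ratios; under 16 settings none reversed, 246 of 384 values moved beyond counting error and 2 came under 2-fold. Of 496 list medians 60 moved. Reversal was counted only for lists with a main median of 2-fold or more. Of their 96 values 3 reversed and 20 came under 2-fold. Changes of sign in the other lists were not counted as reversals. Under TMM scaling the list medians of AP-1, cholesterol and antioxidant genes moved from just below 0 to 0 or just above. Erythroid limits, and the runs without CT010467.1, were chosen after seeing the data. Counting error is small beside the spread between cells. With 1 plate per side, plate and lane effects cannot be told apart from treatment or day.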
